A study of Mus musculus with 2 samples.

Results

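The apolipoprotein genes described here are 10 genes whose proteins carry lipid in plasma or tissue fluid. Apoa1, Apoa2, Apoa5, Apob, Apoc1, Apoc2, Apoc3 and Apoh are made chiefly by the liver, and some of them also by the intestine. Apoe and Apod, here called brain-made, are made also within the brain, and the 2 classes are not exclusive. The members were chosen by symbol with the measured values of these arrays in view, to set liver-made genes against Apoe. Their differences between the genotypes are therefore given as a description. Of the 10 genes, 9 had at least 1 probe whose accession matched, among 20660 genes named on the array, and these 9 had 12 probes and 30 spots. Apoc2 had no matched probe and was not analysed here.

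Tissue RNA came from male mice on the C57Bl/6 N background at 12 weeks of age that were either Il18-/-, lacking the cytokine interleukin-18, or Il18+/+. Total RNA of 7 mice was mixed per genotype, and each mixture was hybridised to 1 single-colour array, so each genotype has 1 sample. How the Il18 allele was made is not given in the sources used here, and both arrays lay on 1 slide. Hippocampus is the labelled tissue, but the RNA purification is described for prefrontal cortex. Without replicate pools the differences could not be tested, and precision is limited by there being 2 arrays.

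Lipoproteins are particles of lipid and protein. Apolipoprotein B forms the backbone of the particles that liver and intestine secrete, A-I and A-II are the main proteins of high-density lipoprotein, and the C proteins and A-V adjust how fast lipoprotein lipase removes triglyceride. These plasma particles pass the blood-brain barrier poorly. In the brain, astrocytes secrete apolipoprotein E, which carries cholesterol to neurons through receptors of the low-density lipoprotein receptor family, and glial and perivascular cells secrete apolipoprotein D, a lipocalin.

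The promoters of Apob, Apoh, Apoa1 and Apoe are shown because the first 3 belong to liver-made genes that read higher in Il18-/- and the last to the brain-made gene set against them. Each is the 250 bases before the annotated start in RefSeq (GRCm38.p6), 5′ to 3′ on the strand of the gene. For Apoe it is the first of 3 starts listed. Apob lies on the plus strand at chr12:7977427-7977676, Apoh on the plus strand at chr11:108395047-108395296, Apoa1 on the plus strand at chr9:46228380-46228629 and Apoe on the minus strand at chr7:19699189-19699438. Capitals mark matches to any of 4 motifs searched on both strands.
Apob: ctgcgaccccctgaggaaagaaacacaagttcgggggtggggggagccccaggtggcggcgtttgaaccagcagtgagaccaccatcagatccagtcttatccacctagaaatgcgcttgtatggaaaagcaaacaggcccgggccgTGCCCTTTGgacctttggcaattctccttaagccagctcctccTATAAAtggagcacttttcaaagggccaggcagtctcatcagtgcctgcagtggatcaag
Apoh: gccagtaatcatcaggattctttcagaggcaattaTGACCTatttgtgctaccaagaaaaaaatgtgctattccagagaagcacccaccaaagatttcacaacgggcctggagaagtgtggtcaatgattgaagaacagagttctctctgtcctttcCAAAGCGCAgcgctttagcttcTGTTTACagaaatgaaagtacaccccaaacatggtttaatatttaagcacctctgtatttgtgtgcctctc
Apoa1: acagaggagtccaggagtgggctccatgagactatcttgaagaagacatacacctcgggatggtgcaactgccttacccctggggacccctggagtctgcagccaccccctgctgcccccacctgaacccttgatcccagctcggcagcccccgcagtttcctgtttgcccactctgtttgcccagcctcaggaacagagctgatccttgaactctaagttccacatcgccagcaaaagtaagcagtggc
Apoe: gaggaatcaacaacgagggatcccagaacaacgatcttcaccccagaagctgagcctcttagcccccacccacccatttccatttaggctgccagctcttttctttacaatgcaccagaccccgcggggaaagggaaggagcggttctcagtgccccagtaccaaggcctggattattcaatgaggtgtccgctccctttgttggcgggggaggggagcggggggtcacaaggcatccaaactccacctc

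The 4 motifs were AGGTCA (half-site of nuclear receptors), CAAAGNNCA (the type bound by hepatocyte nuclear factor 4), TGTTTAC (forkhead factors) and TATAAA (a core promoter box near many start sites). They were found in 14.0%, 5.49%, 3.17% and 12.4% of 32851 promoter windows of this length, in that order. The promoter table held 8 of the 10 members. CAAAGNNCA was present before Apob, from base 103 to base 95 before the start, and before Apoh, from base 93 to base 85. The Apoh window also held AGGTCA in reverse and TGTTTAC, and the Apob window held TATAAA from base 60 to base 55. No match overlapped another in the 4 windows. The windows printed for Apoa1 and Apoe held none of these letters. Of the other Apoe starts listed, the second had TATAAA on both strands, in overlapping matches at bases 100 to 95 and 96 to 91 before it, so the Apoe result depends on the start shown. Neither binding nor promoter activity was measured in these samples.

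Levels below are log2 of the processed intensity after subtraction of the 75th percentile of each array, and a difference is Il18-/- minus Il18+/+. Il18 itself, read by 1 probe, had a level of -0.12 in Il18-/-, against 1.37 in Il18+/+, which is 2.80-fold lower. The place of that probe relative to the deleted part is not known here. Of 7 hippocampal neuron genes, all 7 were well above background on both arrays and differed by -0.02 to 0.41. Well above background is a call of the scanner software for each spot, and a gene counts as measured where a probe passed it on both arrays. Choroid plexus genes were lower in Il18-/- in 9 of 9 cases, with a median of -1.18. All 9 were at least 1.5-fold lower, beside 2.57% of all measured genes, and this list too was chosen with earlier results known. Ttr, transthyretin, had a level of 7.05 in Il18-/- and 8.01 in Il18+/+.

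Of the 8 liver-made apolipoproteins, 6 were well above background on both arrays, Apoa1 was so in Il18-/- only, and Apoc2 had no probe. Among these 6, 5 read at least 1.5-fold higher in Il18-/- and 4 of them at least 2-fold higher, and none read lower. Over the 15737 genes measured on both arrays, 1.68% were at least 1.5-fold higher, 0.642% at least 2-fold higher and 2.57% at least 1.5-fold lower. Since values of this contrast chose the members, nothing is read from the excess over those shares. The median difference of the 6 genes was 1.28, or 2.43-fold, against 0.01 over all measured genes, and it was 1.35 over 7 genes with Apoa1 at its lower bound. Higher calls were 264 and lower calls 405 over all genes in this scaling, against 311 and 324 with quantile normalization, 320 and 317 with median scaling, 333 and 283 with loess and 129 and 1659 when scaled to spike-in controls.

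Apob, the structural protein of very-low-density and low-density lipoprotein, had a processed intensity of 109.8 scanner units in Il18-/- and 27.1 in Il18+/+. That is a log2 level of -2.69 in Il18-/- and of -4.68 in Il18+/+, a 3.97-fold higher signal. Among 60 repeated probes nearest to it in signal, each with 10 spots per array, the standard deviation of the difference between spots had a median of 0.20 and a 95th percentile of 0.42, so the difference of 1.99 was larger than the spread between spots. This spread covers technical error within an array and not differences between mice. The other Apob probe read 4.61 in Il18-/- and 3.96 in Il18+/+, was not well above background on either array and gives no fold. The difference was 0.92 with normexp background correction and 1.09 without background correction or without the filter on dim probes. Apob ranked 44 from the highest difference among the 15737 genes.

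Apoa1, the main protein of high-density lipoprotein, was read by 1 probe with 10 spots. In Il18-/- its intensity ran from 42.7 to 52.8 with a median of 48.8, and all 10 spots were well above background. In Il18+/+ the 9 spots kept after removal of 1 outlier ran from 11.5 to 16.6 with a median of 14.4, and 0 of 9 were well above background. The spots of both genotypes did not overlap, but they are repeats on 1 array per genotype and show technical spread only. How often the spots of other repeated probes separate in this way was not counted. Apoa1 was at least 3.20-fold higher in Il18-/-, a bound that puts Il18+/+ at -5.56, the faintest level still called above background on that array. Of all named genes on the array, 1.05% passed the background call in Il18-/- alone.

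**Figure D1:**
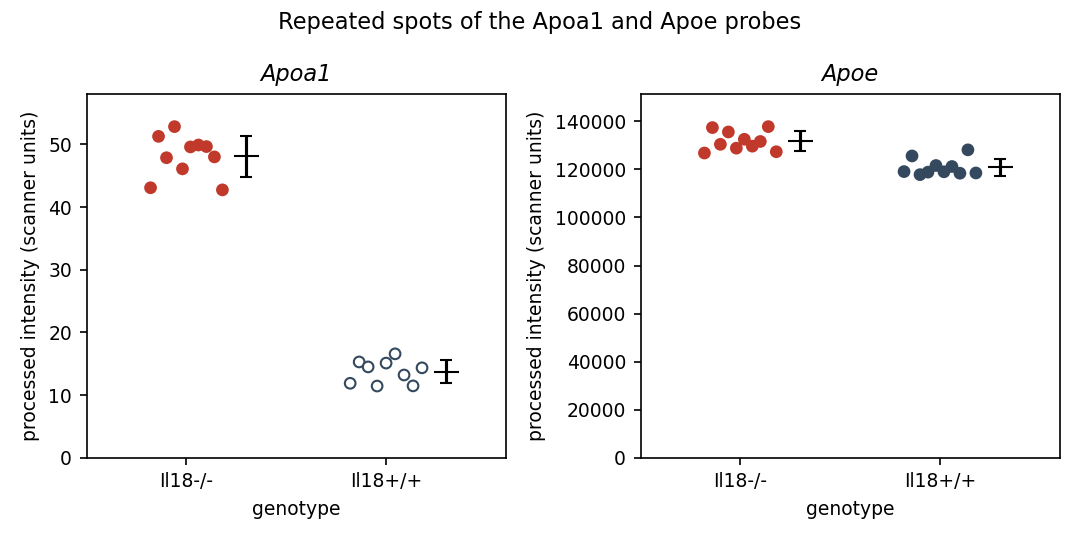
Processed intensity (vertical axis, scanner units, from 0) of each repeated spot of the Apoa1 and Apoe probes, Il18-/- left and Il18+/+ right; open points are not well above background, and the bar beside each group is its mean and standard deviation over spots. The Apoa1 spots lie between 42.7 and 52.8 in Il18-/- and between 11.5 and 16.6 in Il18+/+, while the Apoe spots of both genotypes overlap.

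Apoa2, the second protein of high-density lipoprotein, was read by 2 probes of the same transcript that disagreed. Its dimmer probe had an intensity of 407 in Il18-/- and 132 in Il18+/+, a difference of 1.59 or 3.01-fold. Its brighter probe had 7683 in Il18-/- and 6468 in Il18+/+, a difference of 0.22 or 1.16-fold. Their mean, 0.90, passes 1.5-fold, and their standard deviation of 0.97 is far above the median of 0.12 over 4123 genes with several measured probes. The brighter probe alone would not pass.

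Apoc1 and Apoc3, small proteins that slow the clearance of triglyceride-rich particles, were both higher in Il18-/-. Apoc1 had 1680 in Il18-/- and 707 in Il18+/+, a difference of 1.22 or 2.33-fold. The spot spread, taken as for Apob, was 0.07 at its signal. Apoc3 had 321 in Il18-/- and 124 in Il18+/+, a difference of 1.35 or 2.54-fold, beside a spot spread of 0.12. Apoh, beta-2-glycoprotein I, a phospholipid-binding plasma protein, had 145 in Il18-/- and 49.5 in Il18+/+, a 2.86-fold higher signal, beside a spot spread of 0.17.

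Apoa5, which supports lipoprotein lipase, had a smaller difference. Its intensity was 121 in Il18-/- and 109 in Il18+/+, a difference of 0.12 or 1.09-fold, within the spot spread of 0.14 at its signal. The difference was -0.17 under spike-in scaling. The 1.5-fold line lies at 0.585. Of the measured liver-made members, Apoa2 at 0.90 was the nearest above it, and Apoa5 at 0.12 lay well below it.

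**Figure D2:**
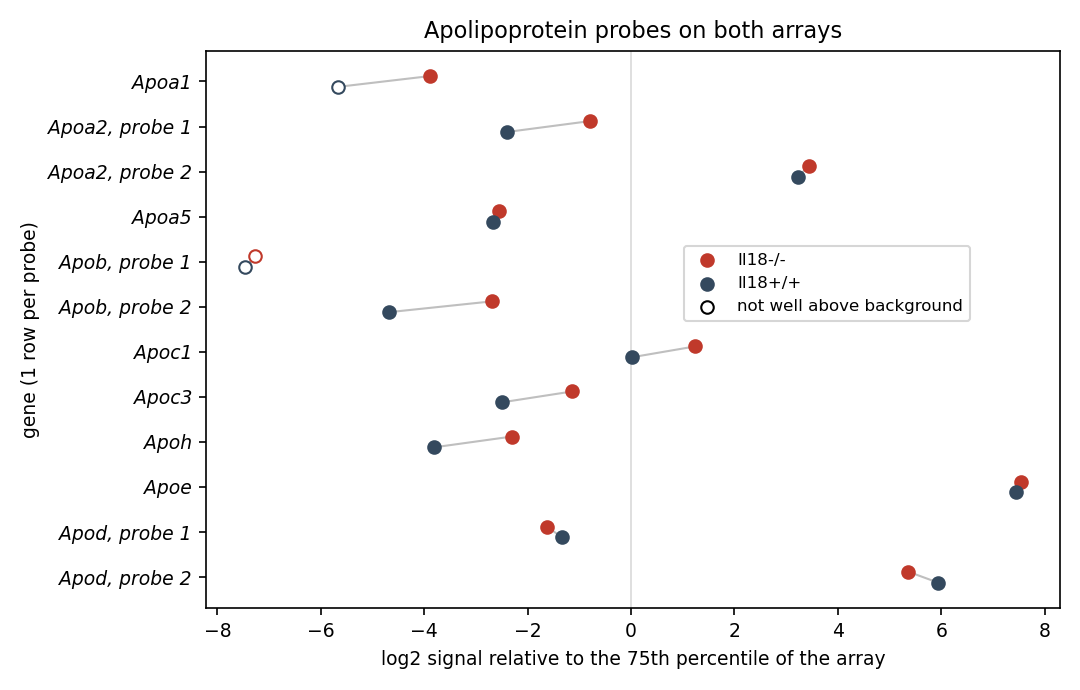
Log2 signal relative to the 75th percentile of the array (horizontal axis) for each of the 12 apolipoprotein probes, 1 row per probe, with Il18-/- above Il18+/+ in each row; open points are not well above background. The gap is widest for the second Apob probe, at -2.69 in Il18-/- and -4.68 in Il18+/+, and the 2 Apoa2 probes differ in how far their points lie apart.

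Apoe, the main lipid carrier made by astrocytes, had a small difference between the genotypes. Its 10 spots ran from 126786 to 137770 in Il18-/- with a median of 130999, and from 117804 to 128106 in Il18+/+ with a median of 119019. The spot ranges overlapped. No spot was saturated. The difference was 0.09 or 1.07-fold, larger than its standard deviation of 0.03 over the 10 spots, and 30.2% of all measured genes had as high a difference or a higher one. It was 0.00 under loess normalization and -0.20 when scaled to spike-in controls, so its direction rests on the scaling.

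Apod, a lipocalin of glial and perivascular cells, was lower in Il18-/- by both of its probes. The brighter probe had 29206 in Il18-/- and 42477 in Il18+/+, a difference of -0.57. The dimmer probe had 229 in Il18-/- and 277 in Il18+/+, a difference of -0.31. Their mean of -0.44, or 1.36-fold lower, did not reach 1.5-fold, and 5.23% of the measured genes had as low a difference or a lower one. In pooled tissue, fewer cells of a type and less RNA per cell cannot be told apart.

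The liver-made members were set against Apoe. Their median difference exceeded that of Apoe by 1.19, or 2.28-fold. Under 10 other processing settings this contrast ran from 0.84 with normexp background correction to 1.29 with loess. Median scaling, spike-in scaling and the authors' values move every difference by the same amount. The contrast had to stay at 1.19 under those settings, so they say nothing about it. The contrast compares differences and not levels, since signals of different probes are not comparable. In Il18+/+ the Apoe probe read 120801 and the brightest liver-made probe, of Apoa2, read 6468. A fixed added signal would give a smaller log2 difference at the brighter probe, but whether such a signal bears on this contrast was not tested. Apoc1 and Apoe lie next to each other on chromosome 7, and Apoc1 differed by 1.22 while Apoe differed by 0.09.

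**Figure D3:**
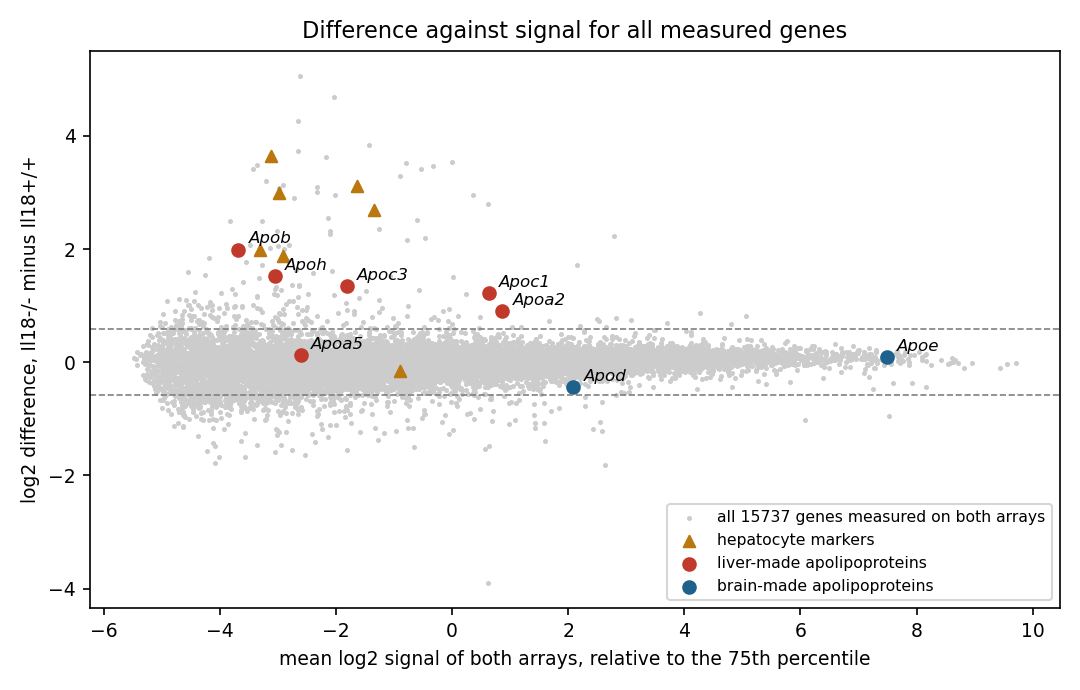
Log2 difference, Il18-/- minus Il18+/+ (vertical axis), against the mean log2 signal of both arrays (horizontal axis) for 15737 genes, with liver-made and brain-made apolipoproteins and hepatocyte markers picked out; dashed lines mark 1.5-fold. Of the liver-made members 5 lie above the upper line and Apoa5, at 0.12, lies near 0 with Apoe, at 0.09.

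Where the genes lie was compared next. The liver-made members with a probe lie on chromosomes 1, 7, 9, 11 and 12. Apoa1, Apoc3 and Apoa5 form 1 cluster on chromosome 9, the chromosome of Il18, with 27 protein-coding genes between Apoa5 and Il18 in RefSeq order. Within that cluster Apoc3 differed by 1.35, Apoa5 by 0.12, and Apoa4 was not well above background on either array. Of 10 measured neighbours of the cluster, 0 reached 1.5-fold in either direction and the median was -0.04, with Cep164 at -0.39, Bace1, the beta-secretase gene, at -0.29, Sik3 at -0.26 and Bud13 at 0.23. Of 10 measured neighbours of Apoe and Apoc1, 0 reached 1.5-fold and the median was -0.05, with Bcam at -0.40 and Bcl3 at -0.29. Over all measured genes 1.68% were at least 1.5-fold higher and 2.57% at least 1.5-fold lower. Counts of 0 in 10 are near those shares, and nothing is read from them. Apob, Apoh, Apoc1 and Apoa2 lie on other chromosomes. Whether a flanking segment of the targeted allele bears on the chromosome 9 members was not tested.

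Other lipoprotein proteins were compared with the members. Of 23 further genes, named as apolipoproteins or coding for proteins of plasma and high-density lipoprotein, 15 were measured on both arrays. This list too was chosen with earlier results known, so nothing is read from its counts. Of the 15 genes, 4 read 2-fold or more above Il18+/+ in Il18-/-, beside 0.642% of all measured genes. None read 1.5-fold or more below it, and the median was 0.08. The rest lay within 1.5-fold, with Pon3 at -0.33, Apom at -0.05, Lcat at -0.02 and Rbp4 at 0.20. Hp, haptoglobin, read -0.09 in Il18-/- and -2.44 in Il18+/+, or 5.10-fold higher. Itih4, a plasma protease inhibitor chain, was 4.13-fold higher, Hpx, hemopexin, 3.97-fold and Saa2, an acute-phase apolipoprotein with near-identical family members, 3.44-fold. Saa1, of the same family, had a level of -0.43 in Il18-/- and -0.49 in Il18+/+, a difference of 0.06, and how far the probes of the family share signal was not tested. Apof and Pon1 were well above background in Il18-/- only, at least 1.68-fold and 1.53-fold higher. Apoa4, Apoc4, Apon, Apol6 and Saa4 were not well above background on either array.

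Genes that assemble and export lipoproteins differed little. Of 15 measured genes, 7 were higher and 8 lower, none reached 1.5-fold and the median was -0.01, beside 52.6% of all measured genes with a difference above 0. Dgat2, of triglyceride synthesis, differed by 0.30, the lipid transporter Abca7 by -0.26 and Apobec1, the editing enzyme of the Apob transcript, by 0.15. Mttp, which loads lipid onto apolipoprotein B, differed by 0.14. Of 11 measured lipases and regulators none reached 1.5-fold, with Creb3l3 at -0.51 and Lpl, lipoprotein lipase, at 0.23. Their median was 0.06, and it was -0.24 when scaled to spike-in controls.

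Of 18 measured receptors that take up lipoproteins, 13 were lower and 5 higher, with a median of -0.15 that stayed below 0 in all 10 alternatives. Sorl1, a sorting receptor that binds apolipoprotein E, was the 1 gene past 1.5-fold, at 4.70 in Il18-/- and 3.84 in Il18+/+, or 1.82-fold higher by 1 probe. Lrp6 differed by -0.51, Lrp2 by -0.43 and Trem2, a microglial receptor that binds apolipoprotein E, by 0.43. In the list for cholesterol handling in brain, 14 of 20 measured genes were lower and the median was -0.11. Soat1, which esterifies cholesterol, was 2.66-fold lower by 1 probe, at -3.07 in Il18-/- and -1.66 in Il18+/+, and Ch25h differed by -0.56. Among all measured genes 52.6% had a difference above 0, 1.68% were at least 1.5-fold higher and 2.57% at least 1.5-fold lower. Both lists were chosen with earlier results known, and nothing is read from their counts.

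Of 22 regulators of apolipoprotein transcription, 14 were measured on both arrays and none of them reached 1.5-fold. Nr2f2, a nuclear receptor, differed by -0.57 and Nr5a2, a liver and pancreas nuclear receptor, by -0.54. Hnf4a, the nuclear receptor that drives many hepatic genes, was well above background in Il18-/- only, by 1 dim probe. Its level was -4.19 in Il18-/- and -6.26 in Il18+/+, at least 2.60-fold higher in this scaling. Of all named genes, 1.05% passed the background call in Il18-/- alone. Foxa1, Foxa2 and Foxa3, also liver regulators, were not well above background on either array.

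Of 8 hepatocyte markers 7 were measured, 6 of them at least 2-fold higher in Il18-/-, beside 0.642% of all measured genes. Their median was 2.70, with a mean level of -1.16 in Il18-/- and -3.47 in Il18+/+. Like the members, this list was chosen with earlier results known, so nothing is read from the excess. Alb, albumin, was 12.5-fold higher, Ahsg 8.67-fold, Fgb 7.95-fold and Serpina1a 6.48-fold, the last in a family of near-identical copies. Tat differed by -0.15, and Cps1 was not well above background on either array. The measured markers ran from -2.32 to -0.01 in Il18-/- and from -4.95 to -0.82 in Il18+/+. Hpx is in this list and in that of further apolipoprotein and plasma protein genes. The part of hepatocyte RNA in the apolipoprotein differences was not tested. Of 8 enterocyte markers 4 were measured, none reached 1.5-fold and the median was -0.07, and the others, Alpi, Cdx1, Cdx2 and Apoa4, were not well above background on either array.

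For the brain-made members, all 11 astrocyte markers were measured and none reached 1.5-fold, with a median of 0.04, beside 0.09 for Apoe. Slc1a2, a glutamate transporter gene, differed by -0.39 and Slc1a3 by 0.17. All 8 oligodendrocyte markers were lower in Il18-/-, none of them by 1.5-fold, with a median of -0.22, beside -0.44 for Apod. Over all measured genes 52.6% had a difference above 0. Mobp differed by -0.50 and Mbp, myelin basic protein, by -0.28. Fibroblast and mural markers were lower in 7 of 9 cases with a median of -0.17, and microglial markers in 4 of 7 with a median of -0.02. Acta2, of smooth muscle, differed by -0.40 and Dcn, of fibroblasts, by -0.37. The part of these cells in the Apod difference was not tested. Spike-in scaling lowers every difference by 0.29 and moves the median of all genes to -0.28, so small positive medians turn negative under it. The astrocyte median becomes -0.26, that of plasma proteins -0.21, and the enterocyte median is 0.06 with loess. Of 4 red cell genes, 2 were measured, with a median of 0.14 that becomes -0.15 under spike-in scaling.

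**Figure D4:**
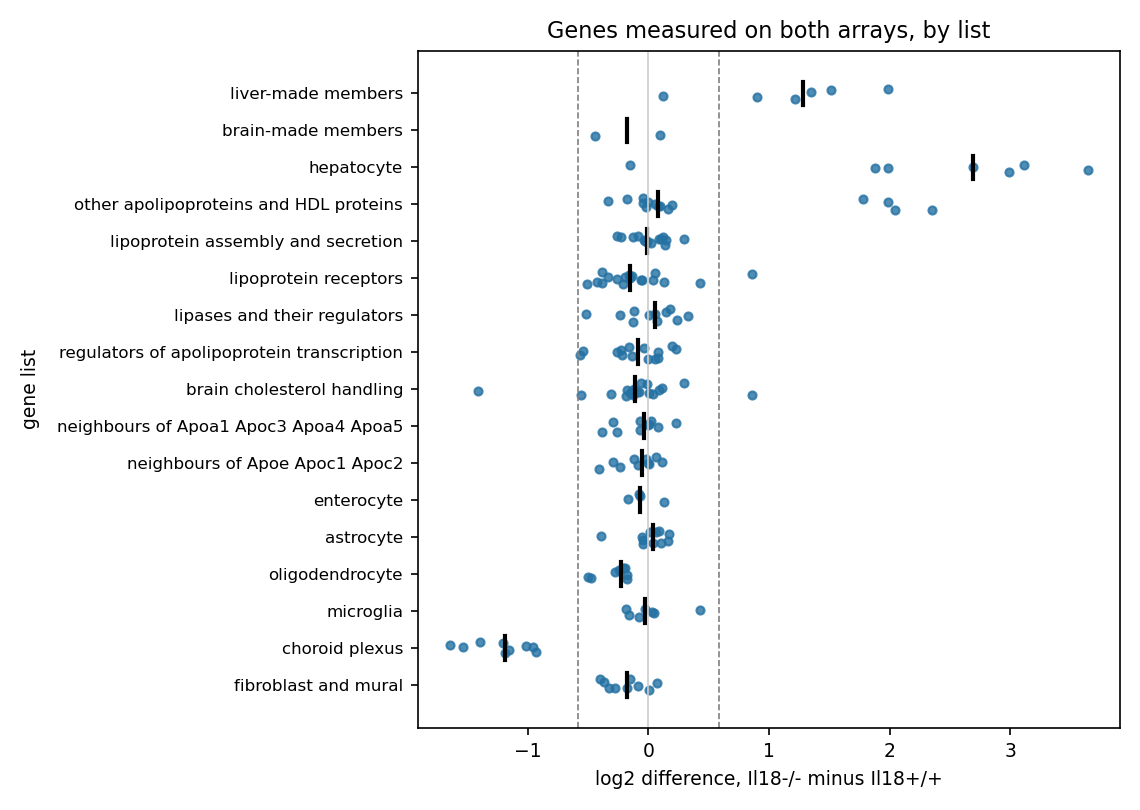
Log2 difference, Il18-/- minus Il18+/+ (horizontal axis), of the genes measured on both arrays, by list (vertical axis); each point is a gene, the black bar is the median of the list and dashed lines mark 1.5-fold. The liver-made members (median 1.28) and hepatocyte markers (median 2.70) lie to the right, and the lists for assembly, receptors and lipases lie near 0.

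Position on the glass was checked for the 12 probes. Among the 18 nearest spots, at most 2 differed by 2-fold or more in the same direction as the probe, and 0 did so for Apob, Apoc1, Apoc3 and Apoh. Genes with the most similar pair of levels, by Euclidean distance over the 2 arrays, were Mtch1, Cst3, Fau and Ppp3ca for Apoe, at distances up to 0.07. For Apod they were Sv2b, Plin3, Gnao1, Slc17a5 and Gm9920, at up to 0.13, and for Apoa2, Plac9a, Fmr1nb, Rarres2, Bbc3 and Clec4a2, at 0.27 to 0.33. These likenesses compare probe signals over 2 arrays only.

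**Figure D5:**
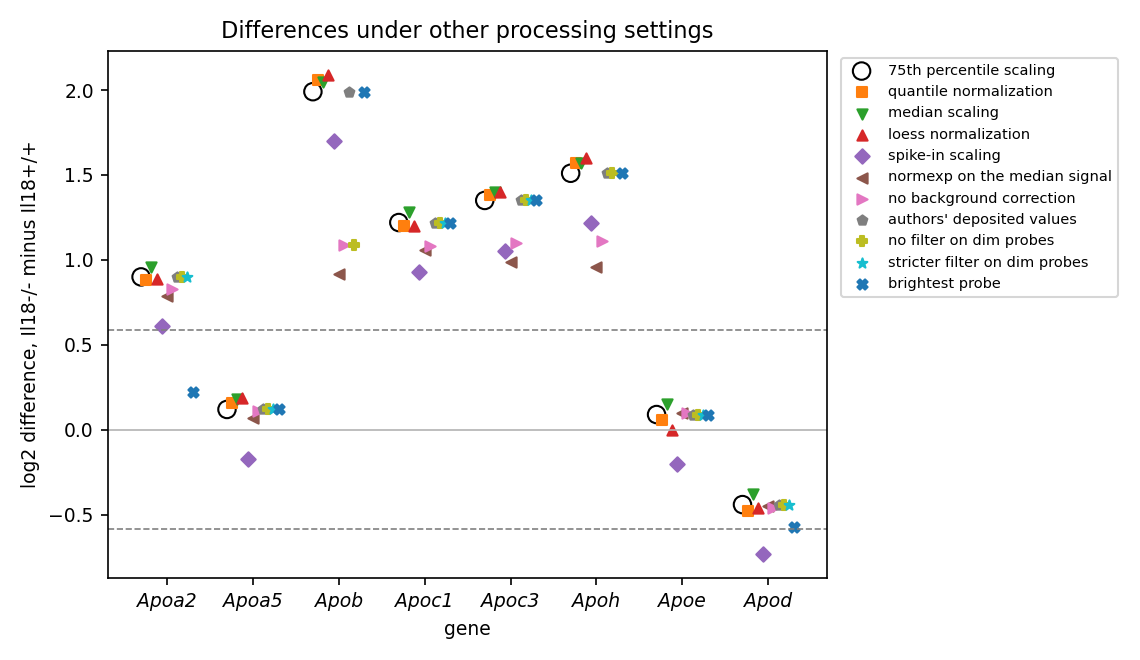
Log2 difference, Il18-/- minus Il18+/+ (vertical axis), of the 8 members measured on both arrays under 11 settings (symbols); dashed lines mark 1.5-fold. Apob, Apoc1, Apoc3 and Apoh stay above the upper line in each setting that measures them, Apoa2 falls to 0.22 when read by its brightest probe, and Apoa5 and Apoe lie near 0.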

How the data were processed

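For each genotype 1 pool of total RNA from 7 mice was labelled with a single dye (Cy3) and read on 1 Agilent mouse array each, per the labels. Spot intensity, as deposited, is the output of Agilent Feature Extraction 10.10.1.1, named in the headers and in the submitters' processing notes. Per the file headers these values are background-subtracted and detrended within the array and not scaled between arrays. The design refers to mm9. The authors' deposited value table equals the processed intensity times 1.92 (Il18-/-) and 2.05 (Il18+/+), with column medians of 139.5 and 151.5. It is linear and uncentred, and the aim of the constants is unknown.

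Control spots (3671 of 62976) and outlier spots (177 in Il18-/-, 124 in Il18+/+) were left out. Log2 intensity minus the 75th percentile of each array (709.9 in Il18-/-, 694.8 in Il18+/+) was averaged over the spots of a probe. Accessions matched to RefSeq GRCm38.p6 named 27235 of 55681 probes. In all 65.4% of the probes in Il18-/- and 67.2% in Il18+/+ were well above background. A gene was measured where at least 1 probe was so on both arrays, and its difference is the mean over such probes. A gene well above background on 1 array only has a lower bound, given for this scaling and background correction only. Other background settings could make it smaller.

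Members, lists and alternatives were chosen with earlier results of these data known. From each list up to 4 genes with the largest difference were to be named. Mttp, Tat, Saa1, Pon3, Apom, Lcat, Rbp4 and the genes listed as not well above background were named after their values were seen. Some genes that this rule names are not reported here. Only the averaging of probes into genes was tested on simulated data, in which every probe counted as above background. Normexp used limma 3.58.1 in R 4.3.3, and all else Python 3.11.15 with pandas 2.3.3 and numpy 2.4.6 (loess with statsmodels 0.14.6). Alternatives were other scalings, background corrections, filters and probe summaries and the authors' values.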

Additional observations from a re-analysis of the deposited data

How the results depend on the processing

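With 1 pool per genotype these alternatives show only how values move with the processing. The median of the liver-made apolipoproteins stayed positive and past 1.5-fold in all 10 alternatives, from 0.94 to 1.34. It was 0.99 with spike-in scaling, 0.94 with normexp (offset 50) on the median signal, 1.09 without background correction and 1.06 with a stricter filter (intensity of at least 50 on both arrays). That filter left 3 members at 1.5-fold or more, against 5, because Apob and Apoh were no longer measured. Without a filter on dim probes 6 members passed, Apoa1 among them, and with the brightest probe of each gene 4, without Apoa2. The Apoe difference was 0.15 with median scaling, 0.00 with loess and -0.20 with spike-in scaling, which lowers every difference by 0.29. Apod was -0.73 with spike-in scaling, past 1.5-fold. The excess of the liver-made median over Apoe was 1.29 with loess, 0.84 with normexp, 0.98 without background correction and 0.97 with the stricter filter. Apob fell to 0.92 with normexp and to 1.09 both without background correction and without the filter, where its dim probe is averaged in. Why the background settings lower the dim members was not tested. Over all genes, 113 were at least 1.5-fold higher and 107 lower with normexp, 132 and 147 without background correction, 815 and 1357 without a filter and 146 and 223 with the stricter one, against 264 and 405. The authors' deposited values gave the same differences. No paired analysis was possible because each genotype had 1 pool.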
